A study of Homo sapiens with 8 samples.

Results

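The genes described here are 10 ductal surface and secreted markers of pancreatic ductal adenocarcinoma (PDA): *CEACAM1*, *CEACAM5*, *CEACAM6*, *AGR2*, *LCN2*, *TSPAN1*, *TSPAN8*, *MSLN*, *PSCA* and *EPCAM*. They were taken by name, not by their values, and looked up by symbol among the 25702 genes listed in each library, and all 10 were found. Bulk RNA-seq had been made from SUIT2, a human PDA cell line, in 8 libraries. All cells carried a lentiviral short hairpin RNA: 4 libraries are labelled shScr (scramble hairpin), 2 are labelled shEN1 #1 and 2 are labelled shEN1 #2 (independent hairpins against *EN1*, the gene of the homeobox transcription factor Engrailed-1). The study used the knockdown to ask which transcripts depend on EN1, and no further treatment, time or genotype distinguishes the libraries. The samples are a single cell line with no stroma, and nothing in the labels says whether libraries with the same label came from separate cultures, so p-values measure only the spread between these libraries, which may be technical.

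Most of these proteins sit at or leave the apical face of gut and duct epithelium. The carcinoembryonic antigen family (CEACAM) are immunoglobulin-like adhesion molecules, tetraspanins (TSPAN) organise other membrane proteins into patches, EPCAM is a homotypic adhesion molecule of epithelial cells, and mesothelin (MSLN) and prostate stem cell antigen (PSCA) are held in the membrane by a lipid anchor. AGR2 is a disulfide isomerase that helps fold mucins and can be secreted, and lipocalin 2 (LCN2) is secreted and binds the iron carriers of bacteria. Many of them are studied as PDA biomarkers or as targets for antibodies and engineered T cells, and several belong to the genes that define the classical subtype of PDA.

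The libraries held between 33423590 and 37810604 counts, a ratio of 1.13, and a count of 0 allows a level of up to 0.0921 CPM (counts scaled to a common library size with edgeR's TMM factors, the limit covering counting error only). The targeted gene went against the labels. *EN1* had 136, 167, 172 and 94 counts in shScr replicates 1 to 4, 206 and 184 counts in shEN1 #1 replicates 1 and 2, and 53 and 218 counts in shEN1 #2 replicates 1 and 2, so it was higher than in any library labelled shScr in 3 of the 4 libraries labelled shEN1 (log2 fold change 0.26, standard error 0.43, adjusted p = 1.00 from edgeR, and p = 0.543 from an exact, two-sided permutation test). Every direction given below is therefore a direction between labels. The line expressed the keratins and other ductal markers fixed for this check, whose CPM summed to between 11430 and 18409. The largest parts came from *KRT8* (6094 to 9573 CPM) and *KRT18* (3586 to 5628 CPM). *SOX9* lay between 32.8 and 70.0 CPM, and *CFTR* was low, between 0.160 and 7.69 CPM. The 4 defining immune genes *PTPRC*, *CD3E*, *MS4A1* and *HLA-DRA*, the acinar genes *CPA1* and *PNLIP*, the hormone genes *INS* and *GCG* and the fibroblast genes *COL1A2*, *COL3A1*, *DCN* and *LUM* had 0 counts in every library. A pair of libraries, shScr replicate 4 and shEN1 #2 replicate 1, stood apart from the other 6, and the values below are given with and without them where they matter.

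The 10 genes spanned more than 3 orders of magnitude. Per kilobase of the canonical transcript, which allows levels of different genes to be compared, *CEACAM6* (median 342 CPM per kb over 8 libraries) and *EPCAM* (299 CPM per kb) were highest. *TSPAN1* (58.1), *LCN2* (52.2), *TSPAN8* (44.7), *MSLN* (26.4) and *AGR2* (19.4 CPM per kb) formed a middle group, *CEACAM1* followed at 2.67 CPM per kb, and *PSCA* (0.216) and *CEACAM5* (0.122 CPM per kb) were close to the limit of detection. *EPCAM* was above *TSPAN1*, *AGR2* above *CEACAM1*, and *CEACAM1* above *PSCA* in 8 of 8 libraries. Other neighbours in this order changed places between libraries: *CEACAM6* was above *EPCAM* in 4 of 8 libraries, *TSPAN1* above *LCN2* in 4, *LCN2* above *TSPAN8* in 4, *TSPAN8* above *MSLN* in 5 and *MSLN* above *AGR2* in 6. *CEACAM6* alone supplied between 46.1% and 59.1% of the summed CPM of the 10 genes, and with *EPCAM* between 79.2% and 85.6%.

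**Figure D1:**
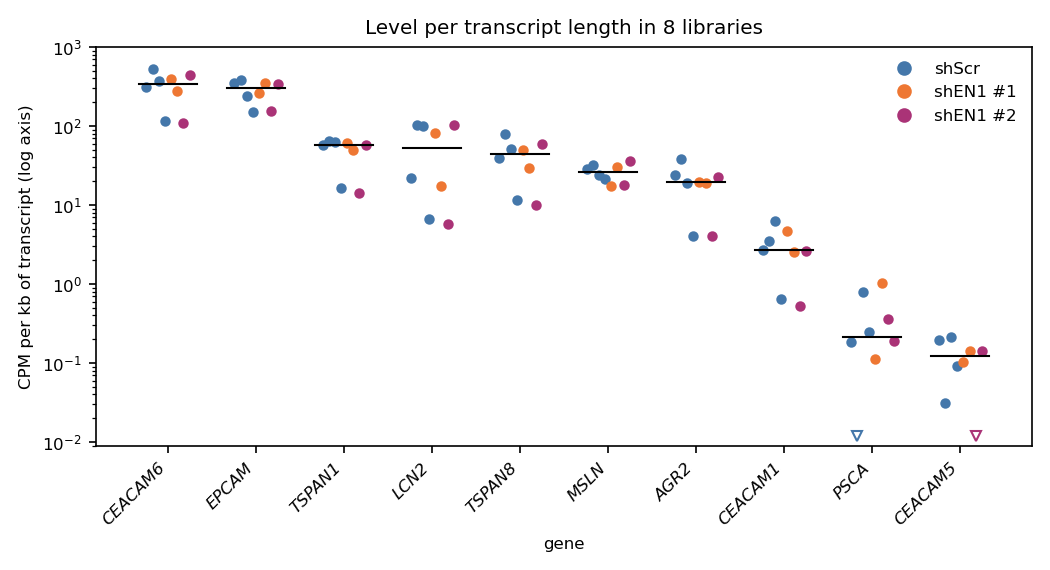
Level of each gene in CPM per kilobase of canonical transcript (log axis) in the 8 libraries, coloured by label, with the median as a black line and open triangles at the bottom for libraries with 0 counts. *CEACAM6* and *EPCAM* lie highest, and *PSCA* and *CEACAM5* have medians of 0.216 and 0.122 CPM per kb.

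The CEACAM genes lie in a cluster on chromosome 19. *CEACAM6*, whose product is anchored in the membrane by lipid and is abundant in gut and pancreatic tumours, spans chr19:42254885-42276116 of GRCh37 on the plus strand. Its neighbour *CEACAM5*, the gene of carcinoembryonic antigen itself, spans chr19:42212504-42234353 on the same strand, and *CEACAM1*, which has a cytoplasmic tail and signals inside the cell, spans chr19:43011456-43065386 on the minus strand. Because the first pair differ so much in level in this line, the 250 bases before their RefSeq starts (GRCh38.p14, 5′ to 3′ on the gene's strand, no transcribed base included) are shown, with capitals for matches to any of the 10 short motifs searched.
CEACAM6, chr19:41755280-41755529, plus strand: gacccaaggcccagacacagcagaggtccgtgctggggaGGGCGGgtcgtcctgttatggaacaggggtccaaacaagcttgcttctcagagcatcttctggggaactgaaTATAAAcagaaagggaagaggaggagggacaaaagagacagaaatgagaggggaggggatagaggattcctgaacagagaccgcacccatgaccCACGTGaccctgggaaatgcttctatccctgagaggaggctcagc
CEACAM5, chr19:41708376-41708625, plus strand: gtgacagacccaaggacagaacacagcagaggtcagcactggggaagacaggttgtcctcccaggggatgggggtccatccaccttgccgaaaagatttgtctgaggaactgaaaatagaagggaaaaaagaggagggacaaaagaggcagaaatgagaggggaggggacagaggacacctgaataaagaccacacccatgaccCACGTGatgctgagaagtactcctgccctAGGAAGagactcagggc
A global alignment gave 194 identical bases in 260 columns (74.6% identity), against 68.2% between *CEACAM1* and *CEACAM6* and 66.2% between *CEACAM1* and *CEACAM5*. Both of the printed windows hold the palindrome CACGTG (an E-box), 45 to 40 bases before the start in *CEACAM6* and 46 to 41 in *CEACAM5*. It occurred in 6.34% of the 35116 RefSeq windows of this length. The *CEACAM6* window alone of these 2 holds GGGCGG (a GC box, in 42.6% of all windows) and TATAAA (in 10.7%), and the *CEACAM5* window alone holds AGGAAG (an ETS core, in 28.7%).

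The transcript levels of this pair were far apart in every library. *CEACAM6* had 807, 1350, 969 and 303 CPM in shScr replicates 1 to 4, 1027 and 722 CPM in shEN1 #1, and 281 and 1151 CPM in shEN1 #2. The 2 low values came from shScr replicate 4 and shEN1 #2 replicate 1, and the other 6 libraries lay between 722 and 1350 CPM, so that the labels overlapped along nearly their whole range. The label means were 857 ± 434 CPM for shScr and 795 ± 388 CPM for shEN1 (SD, n = 4 each), a log2 fold change of -0.11 (standard error 0.49, 95% interval -1.22 to 1.00, adjusted p = 1.00 from edgeR). *CEACAM5* had 23, 4, 26 and 12 raw counts in shScr replicates 1 to 4, 13 and 17 in shEN1 #1, and 0 and 16 in shEN1 #2, 111 counts in all against 231666 for *CEACAM6*. Its 0 in shEN1 #2 replicate 1 allows up to 0.0762 CPM, and its log2 fold change of -0.46 had a standard error of 0.88. The CEACAM genes are close paralogs, so some of the few *CEACAM5* counts could be reads of *CEACAM6*.

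*CEACAM1* had 9.37, 12.3, 21.7 and 2.24 CPM in shScr replicates 1 to 4, 16.2 and 9.004 CPM in shEN1 #1, and 1.83 and 9.25 CPM in shEN1 #2. It was highest in shScr replicate 3 and shEN1 #1 replicate 1, the only marker with its highest pair there, and lowest in the same 2 libraries as *CEACAM6*. The label means were 11.4 ± 8.05 and 9.07 ± 5.86 CPM (shScr and shEN1, SD, n = 4 each; log2 fold change -0.33, standard error 0.70, adjusted p = 1.00 from edgeR). Per kilobase, its level was between 0.00484 and 0.0166 times that of *CEACAM6*, so the ratio of these relatives moved 3.43-fold across the libraries. Of the 12 CEACAM genes listed, 4 passed the filter on low counts. The only other was *CEACAM19*, at 0.203 to 1.46 CPM, and *CEACAM4*, *CEACAM18* and *CEACAM21* had 0 counts in every library.

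*AGR2* (chr7:16831435-16873057 of GRCh37, minus strand), the mucin-folding isomerase, had 40.6, 64.1, 32.3 and 6.86 CPM in shScr replicates 1 to 4, 33.6 and 32.01 CPM in shEN1 #1, and 6.88 and 37.9 CPM in shEN1 #2. Its 6 higher libraries held at least 32.01 CPM and the lowest pair held practically equal levels although their labels differ. The means were 35.9 ± 23.6 CPM for shScr and 27.6 ± 14.0 CPM for shEN1 (SD, n = 4 each; log2 fold change -0.38, standard error 0.64, adjusted p = 1.00 from edgeR). The highest library was 9.34-fold above the lowest, and 2.00-fold above the lowest of the 6 libraries that remain without shScr replicate 4 and shEN1 #2 replicate 1. Of 12 genes for AGR2 and other secretory oxidoreductases of the endoplasmic reticulum, 10 were tested and 0 were called. *P4HB*, the gene of protein disulfide isomerase and the list's highest non-member per kilobase, stayed between 558 and 807 CPM. *ERO1B*, with the list's largest ratio of highest to lowest, was highest in shScr replicate 4 (25.6 CPM) and shEN1 #2 replicate 1 (27.2 CPM). It had 9.87 to 15.8 CPM in the other 6 libraries. For 7 of the 10 tested genes, *AGR2* among them, that pair was instead the lowest. *AGR3*, the closest relative of *AGR2*, had 0 counts in all 8 libraries.

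*TSPAN1* (chr1:46640745-46651634 of GRCh37, plus strand) and *TSPAN8* (chr12:71518865-71835678, minus strand) are the tetraspanins of the set. *TSPAN1* had 94.2, 106, 101 and 26.7 CPM in shScr replicates 1 to 4, 98.3 and 81.6 CPM in shEN1 #1, and 23.3 and 93.7 CPM in shEN1 #2. Without the 2 low libraries it was among the steadier markers, with a 1.30-fold range over 6 libraries that was wider than that of only 22.6% of tested genes. *TSPAN8* had 44.6, 89.1, 58.6 and 12.9 CPM in shScr replicates 1 to 4, 56.5 and 32.98 CPM in shEN1 #1, and 11.2 and 67.4 CPM in shEN1 #2. It shared the low pair, and it still varied 2.70-fold over the other 6 libraries. The log2 fold changes were -0.14 (standard error 0.50) for *TSPAN1* and -0.29 (standard error 0.61) for *TSPAN8*, both with an adjusted p of 1.00 in edgeR. Of 32 tetraspanin genes listed, 25 were tested, 0 were called, and 10 had their 2 lowest values in shScr replicate 4 and shEN1 #2 replicate 1. *CD9*, the list's highest non-member per kilobase, ranged from 445 to 691 CPM, and *TSPAN10*, with the largest ratio of highest to lowest, from 0.0588 to 0.768 CPM.

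*AGR2* and *TSPAN8* had like profiles over the libraries, which is why the windows before their starts (RefSeq, GRCh38.p14) are shown with that of *LCN2*, whose profile differed. For *TSPAN8*, RefSeq has a pair of starts and the window of the outer one is given.
AGR2, chr7:16805000-16805249, minus strand: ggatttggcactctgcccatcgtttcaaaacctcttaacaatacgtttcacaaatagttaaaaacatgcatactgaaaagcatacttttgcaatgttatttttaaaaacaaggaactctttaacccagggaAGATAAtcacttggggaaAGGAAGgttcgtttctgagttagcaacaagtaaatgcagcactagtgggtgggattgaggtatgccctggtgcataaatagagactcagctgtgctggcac
TSPAN8, chr12:71158000-71158249, minus strand: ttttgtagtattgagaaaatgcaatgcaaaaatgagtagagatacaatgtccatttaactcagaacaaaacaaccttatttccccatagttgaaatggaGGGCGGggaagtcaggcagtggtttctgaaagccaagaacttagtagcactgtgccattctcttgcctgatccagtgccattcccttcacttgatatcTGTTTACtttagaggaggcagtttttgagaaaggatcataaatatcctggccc
LCN2, chr9:128149203-128149452, plus strand: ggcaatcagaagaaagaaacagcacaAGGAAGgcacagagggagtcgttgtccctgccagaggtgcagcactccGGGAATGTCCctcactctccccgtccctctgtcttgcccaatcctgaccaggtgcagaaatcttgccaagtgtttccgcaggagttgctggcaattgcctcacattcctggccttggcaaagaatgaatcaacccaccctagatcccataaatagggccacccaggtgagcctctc
In capitals, the *AGR2* window holds, 119 to 114 bases before the start, the motif of the GATA family of zinc finger factors. Its letters AGATAA were in 9.17% of all windows. The *AGR2* window also holds AGGAAG, 101 to 96 bases before the start. That of *TSPAN8* holds GGGCGG and, 53 to 47 bases before the start, TGTTTAC (a forkhead motif, in 2.98% of all windows). That of *LCN2* holds AGGAAG and, 176 to 167 bases before the start, a kappaB-type match, defined as GGGAA and CC with 3 bases of any kind between them, which 6.02% of all windows contain. The same type of match was found before the start of *TSPAN1*. The *CEACAM1* window holds GGGCGG and AGGAAG, each on the other strand. Of the remaining motifs, TAATTA (a homeodomain core, in 4.35% of all windows), TGAGTCA (AP-1, 4.20%) and CCGGAAG (ETS, 8.52%) were in 0 of the 8 windows found for 7 of the 10 genes. *MSLN*, *PSCA* and *EPCAM* are not shown. Both strands were searched, no motif overlapped another in the windows shown, and a match is a description of the letters only.

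*LCN2* (chr9:130911350-130915732 of GRCh37, plus strand), the secreted lipocalin, varied most. It had 18.2, 85.6, 82.7 and 5.42 CPM in shScr replicates 1 to 4, 67.5 and 14.2 CPM in shEN1 #1, and 4.75 and 85.4 CPM in shEN1 #2. Its values fell at 3 heights, each holding libraries of both labels: 67.5 CPM or more in shScr replicates 2 and 3, shEN1 #1 replicate 1 and shEN1 #2 replicate 2, then 18.2 and 14.2 CPM in shScr replicate 1 and shEN1 #1 replicate 2, and about 5 CPM in shScr replicate 4 and shEN1 #2 replicate 1. The highest library was 18.02-fold above the lowest, and 6.01-fold without that last pair. Its SD over the 8 libraries (1.80 on the log2 scale) was larger than that of 99.7% of tested genes. The label means were nearly equal, 48.0 ± 42.1 CPM for shScr and 43.0 ± 39.5 CPM for shEN1 (SD, n = 4 each), and the log2 fold change was -0.16 (standard error 0.97, 95% interval -2.36 to 2.04, adjusted p = 1.00 from edgeR). This interval includes 4-fold changes in either direction.

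Against *TSPAN1*, the per-kilobase level of *LCN2* was between 0.345 and 0.403 in shScr replicates 1 and 4, shEN1 #1 replicate 2 and shEN1 #2 replicate 1, and between 1.35 and 1.80 in the other 4 libraries. The same 4 libraries with high *LCN2* were those in which *CEACAM6* exceeded *EPCAM* per kilobase (1.31 to 1.58 times), while in the others it was 0.694 to 0.876 times *EPCAM*. Each set of 4 held 2 libraries labelled shScr and 2 labelled shEN1. Of 10 genes for receptors and partners of LCN2 and for iron handling, 5 were tested and 0 were called. *FTH1*, the heavy chain of the iron store ferritin, ranged from 1444 to 3530 CPM, with its 2 lowest values in the same pair of libraries as *LCN2*.

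*EPCAM* (chr2:47572297-47614740 of GRCh37, plus strand), the epithelial adhesion molecule, had 549, 589, 366 and 234 CPM in shScr replicates 1 to 4, 401 and 545 CPM in shEN1 #1, and 241 and 525 CPM in shEN1 #2. Its low pair was again shScr replicate 4 and shEN1 #2 replicate 1, but the highest library was only 2.52-fold above the lowest. The means of 435 ± 165 CPM and 428 ± 140 CPM (shScr and shEN1, SD, n = 4 each) differed by a log2 fold change of -0.02 (standard error 0.32, 95% interval -0.75 to 0.71, adjusted p = 1.00 from edgeR). All 16 genes for EPCAM, its partners and its proteases were tested, and 0 were called. The claudin gene *CLDN7*, whose product binds EPCAM, moved more than *EPCAM* did, from 18.1 CPM in shEN1 #2 replicate 1 and 25.8 CPM in shScr replicate 4 to 149 CPM in shEN1 #2 replicate 2. The protease inhibitor gene *SPINT2* ranged from 331 to 562 CPM.

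*MSLN* (chr16:810734-818865 of GRCh37, plus strand), the gene of mesothelin, had the smallest range of the tested markers over the 8 libraries. Over the 6 libraries without shScr replicate 4 and shEN1 #2 replicate 1, the ranges of *TSPAN1*, *EPCAM*, *CEACAM6* and *AGR2* were smaller (0.38, 0.69, 0.90 and 1.00 against 1.04 for *MSLN*, on the log2 scale). It had 63.4, 70.7, 52.7 and 46.3 CPM in shScr replicates 1 to 4, 38.7 and 67.0 CPM in shEN1 #1, and 39.1 and 79.5 CPM in shEN1 #2. Its lowest value came from shEN1 #1 replicate 1, in which *CEACAM1*, *CEACAM6* and *LCN2* were high, and the labels overlapped. The highest value was 2.05 times the lowest, the means were 58.3 ± 10.9 and 56.1 ± 20.5 CPM (shScr and shEN1, SD, n = 4 each), and the log2 fold change was -0.06 (standard error 0.25, 95% interval -0.61 to 0.50, adjusted p = 1.00 from edgeR). Even so, its SD was larger than that of 69.6% of tested genes. Of the 5 genes listed for MSLN, its relatives and its binding partner, 2 were tested and 0 called. The only one besides *MSLN* was *MSLNL*, at 0.320 to 1.47 CPM.

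*PSCA* was hardly detected. It had 6, 0, 27 and 9 raw counts in shScr replicates 1 to 4, 4 and 34 in shEN1 #1, and 14 and 6 in shEN1 #2, 100 counts in all, and it did not pass the filter on low counts. Its highest libraries were shEN1 #1 replicate 2 (1.00 CPM) and shScr replicate 3 (0.775 CPM), and shEN1 #2 replicate 1 was not among its low ones. The 0 in shScr replicate 2 allows up to 0.0809 CPM. Of 16 genes of the LY6 family and its relatives, to which PSCA belongs, 7 were tested and 0 called, with *LY6E* at 114 to 187 CPM and *LY6D* at 0.508 CPM (shEN1 #2 replicate 1) to 7.72 CPM (shScr replicate 3).

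**Figure D2:**
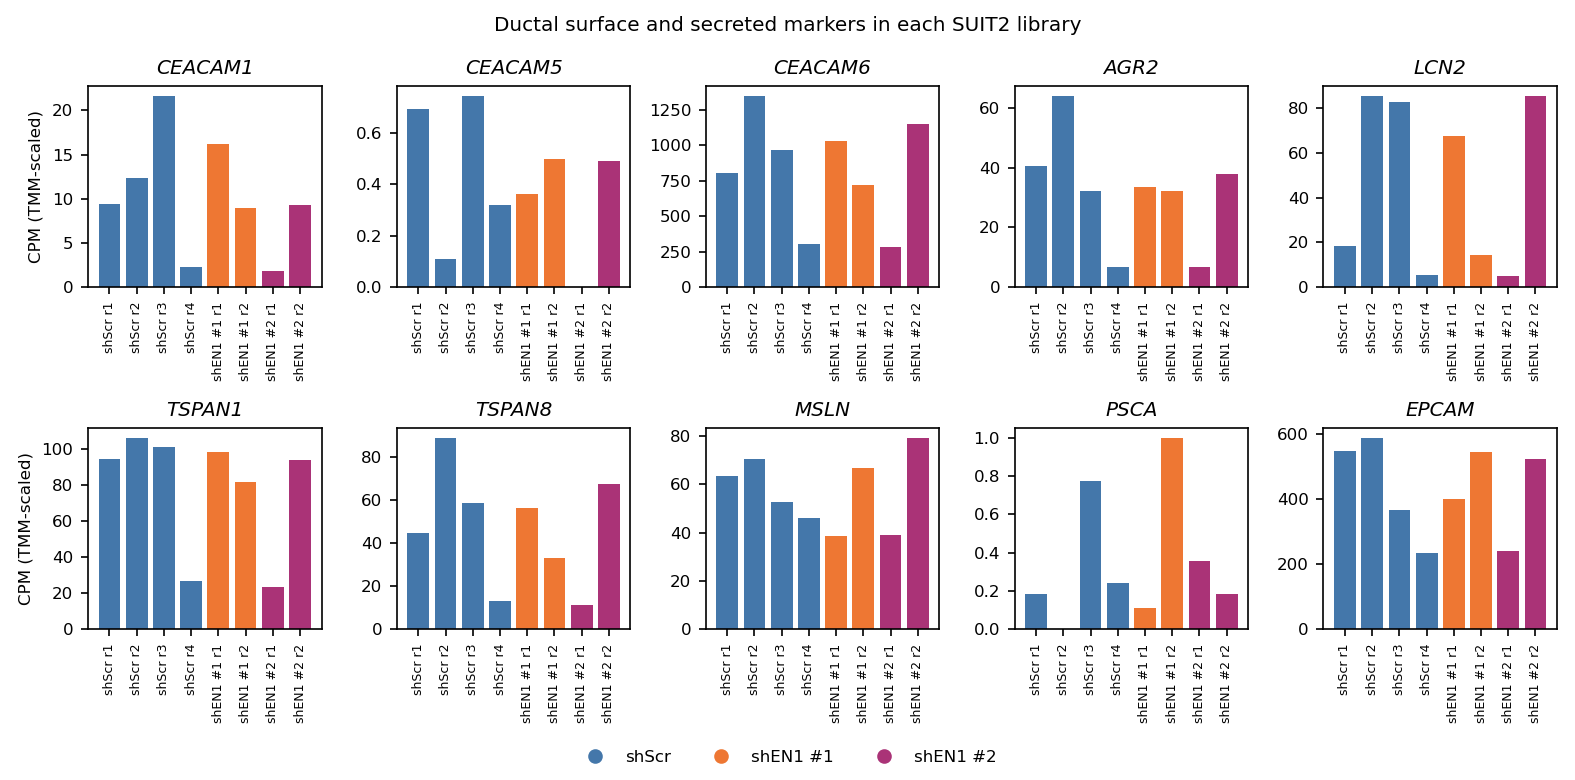
CPM (TMM-scaled, linear axes starting at 0) of the 10 genes, one bar for each library, coloured by label (r, replicate). Bars of shScr replicate 4 and shEN1 #2 replicate 1 are the lowest in 7 panels, *MSLN* has the smallest ratio of highest to lowest over the 8 libraries among the tested genes (2.05), and *CEACAM5* and *PSCA* reach only 0.746 and 1.00 CPM.

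Between the labels, 0 of the 9 tested markers passed an adjusted p of 0.05 in edgeR, where the background over all 14333 tested genes was 0%. At an unadjusted p below 0.05 there were again 0 of 9 (background 0.307%), and the lowest unadjusted value in the edgeR fit was 0.565, for *AGR2*. The 4 libraries of one label did not lie apart from the 4 of the other for any of the 9 (background 0.419%). All 9 log2 fold changes were below 0, with a median of -0.16 against -0.0028 for all tested genes. These directions moved with single libraries: without shScr replicate 2, or without shEN1 #2 replicate 1, 7 of the 9 were above 0. For *CEACAM6* the value moved from -0.11 to 0.20 and 0.17 in these fits. Leaving out shEN1 #2 replicate 1 alone keeps the other low library, shScr replicate 4, under the shScr label. With both of these left out, all 9 stayed below 0, from -0.41 for *AGR2* to -0.02 for *MSLN*, and 0 of the 9 were called.

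Each construct was compared with the same 4 shScr libraries, so that these comparisons are not independent. For shEN1 #1, 4 markers were higher and 5 lower, between -0.23 and 0.15 on the log2 scale, with 0 called (background 0%) and 0 at an unadjusted p below 0.05 (background 0.656%). For shEN1 #2, 1 was higher and 8 lower, between -1.04 (*CEACAM1*, standard error 0.90) and 0.02 (*MSLN*), again with 0 called (background 0%) and 0 at an unadjusted p below 0.05 (background 0.3%). Between the constructs themselves, 0 of 9 were called (background 0%) and 0 reached an unadjusted p below 0.05 (background 1.07%). *CEACAM1* differed most, by -1.19 (standard error 1.00, edgeR, lowest unadjusted p of the 9 = 0.268). Each construct has 2 libraries, and the one with the low marker levels is among those of shEN1 #2.

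**Figure D3:**
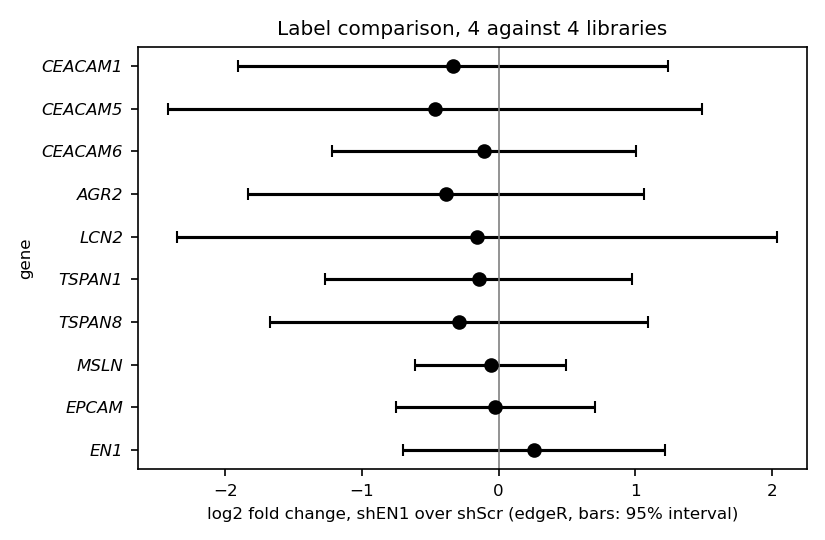
Log2 fold change of the 9 tested markers and *EN1*, libraries labelled shEN1 over those labelled shScr, with 95% intervals from edgeR. All intervals include 0, from the narrowest for *MSLN* (-0.61 to 0.50) to that of *LCN2* (-2.36 to 2.04).

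The markers varied more within labels than between them. The SD within a label was larger than the difference between the label means for 9 of 9 markers and for 94.4% of all tested genes, so this alone did not set them apart. The size of the variation was larger: the median SD over the 8 libraries was 1.102 on the log2 scale for the 9 markers and 0.263 for all tested genes, and 9 of 9 markers against 35.4% of tested genes ranged over more than 2-fold. For 7 of 9 markers, all but *CEACAM5* and *MSLN*, the 2 lowest libraries were shScr replicate 4 and shEN1 #2 replicate 1, which was so for 19.2% of tested genes. The 2 highest were shScr replicate 2 and shEN1 #2 replicate 2 for 4 of 9 markers and for 3.73% of tested genes. These shares are descriptions, since the markers may move together and were not drawn at random.

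Without shScr replicate 4 and shEN1 #2 replicate 1, the spread shrank for most markers. Over the other 6 libraries the ratio of highest to lowest was 1.87 for *CEACAM6* (4.81 over 8), 2.41 for *CEACAM1* (11.8 over 8), 1.61 for *EPCAM* (2.52 over 8) and 2.70 for *TSPAN8* (7.95 over 8). For *MSLN* it was 2.05 over 6 and over 8 libraries. *LCN2* went from 18.02 to 6.01 and kept the widest range of the well-detected markers, larger over the 6 libraries than that of 96.7% of tested genes. In bulk RNA, fewer cells with a transcript and less of it in each cell cannot be told apart. The pair of libraries did not differ in depth from the rest, but their TMM factors (1.06 and 1.07) were above those of the other 6 (0.962 to 1.00). The ductal keratin genes *KRT7* (198 and 192 CPM against 533 to 1080 CPM) and *KRT19* (400 and 321 CPM against 831 to 1648 CPM) were low there too, whereas *KRT8* and *KRT18* lay within the range of the others. The only immune gene above a few CPM, *CD68*, was low there as well. Their part in the result was not tested.

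**Figure D4:**
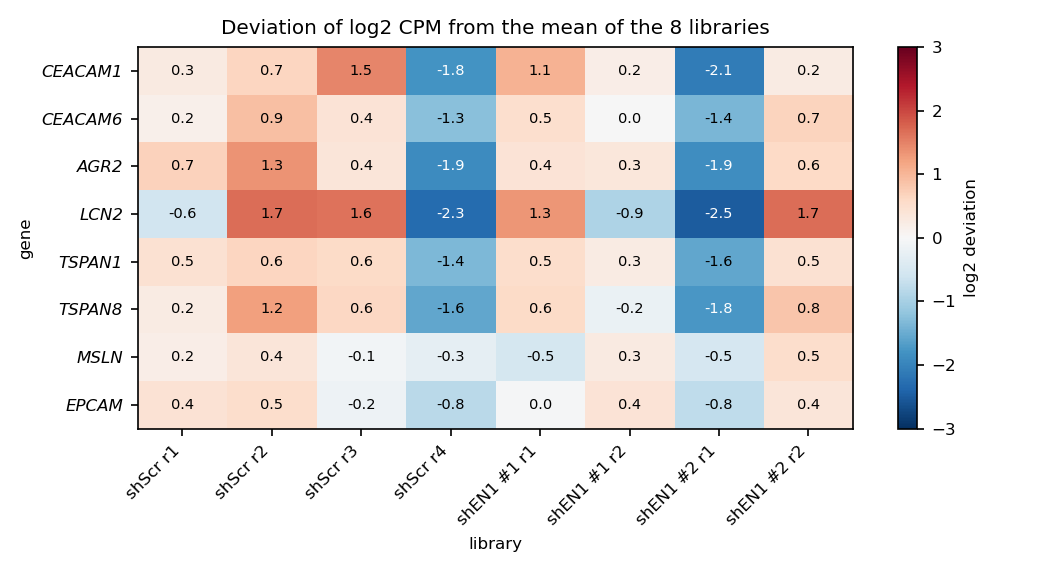
Log2 CPM of the 8 markers with ample counts in each library minus the gene's mean over the 8 libraries (colour and printed value). Both low columns are shScr replicate 4 and shEN1 #2 replicate 1, and *LCN2* is also low in shScr replicate 1 and shEN1 #1 replicate 2.

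Over the 9 tested markers, most libraries were nearest to a library of the other label. The root mean square difference in log2 CPM was 0.278 between shScr replicate 1 and shEN1 #1 replicate 2, 0.389 between shScr replicate 3 and shEN1 #1 replicate 1, 0.672 between shScr replicate 2 and shEN1 #2 replicate 2, and 0.930 between shScr replicate 4 and shEN1 #2 replicate 1. *CEACAM5* weighs on these distances with few counts: 12 and 0 in the last pair, and 4 in shScr replicate 2. Every other tested marker lay close in that last pair, from *AGR2* (6.86 and 6.88 CPM) to *CEACAM1* (2.24 and 1.83 CPM). Over all tested genes that pair was the nearest (0.395). Distances without *CEACAM5* were not taken. The nearest library carried the other label for 7 of 8 libraries, the exception being shEN1 #2 replicate 2, which was nearest to shEN1 #1 replicate 1 (0.501). The median over the 12 pairs with the same label was 1.41, and over the 16 pairs with different labels 0.984. This was not particular to the markers: over all tested genes the nearest library also carried the other label for 7 of 8 libraries (the exception being shEN1 #1 replicate 2), with medians of 0.712 for pairs with the same label and 0.589 for pairs with different labels. These distances are a description of 8 libraries.

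**Figure D5:**
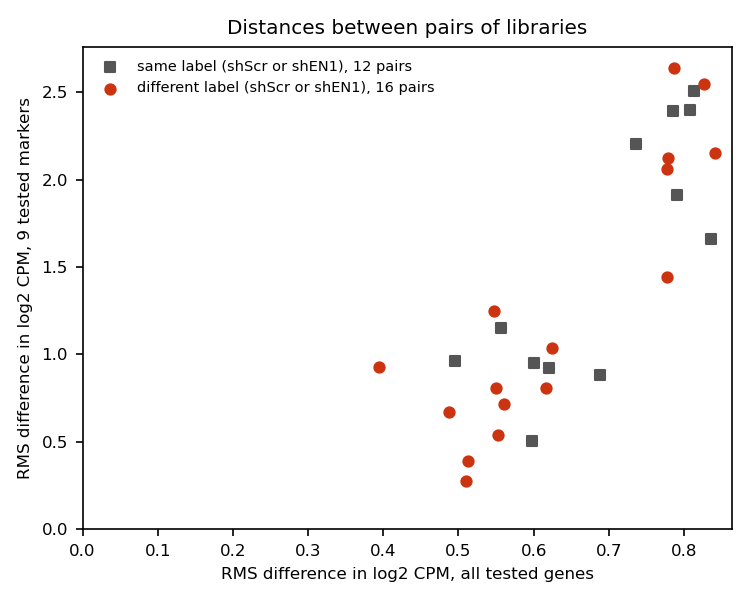
Root mean square difference in log2 CPM for each of the 28 pairs of libraries, over all tested genes (x axis) and over the 9 tested markers (y axis), with squares for pairs of the same label and circles for pairs of different labels. The nearest pair over the markers has different labels (0.278), and the medians are 1.41 for pairs of the same label and 0.984 for pairs of different labels. The markers include *CEACAM5*, whose few counts weigh on the y axis.

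For none of the 9 tested markers was another marker among the 3 genes with the most similar profile. As a measure of likeness, log2 CPM was centred on each gene's mean and the root mean square difference over the 8 libraries was taken, which carries no test because the libraries fall into clusters. The genes most like *CEACAM6* were *EHF* (0.118), an epithelial ETS factor gene, *DPP4* (0.145), a surface peptidase gene, and *COL17A1* (0.163), a hemidesmosome collagen gene. *EHF* had 170, 300, 230 and 72.8 CPM in shScr replicates 1 to 4, 238 and 144 CPM in shEN1 #1, and 68.3 and 224 CPM in shEN1 #2, with the same 4 higher, 2 intermediate and 2 low libraries as *CEACAM6*. Among the markers, *TSPAN1* (0.206) and *TSPAN8* (0.240) were next to *CEACAM6*, at ranks 11 and 17 of the 14332 other tested genes. *CEACAM6* was in turn at rank 5 for *TSPAN8*, so some markers fell shortly after the 3 nearest. Others ranked far from *CEACAM6*, with *LCN2* at rank 10397 and *CEACAM5* at rank 12146. The measure is not scaled to a gene's spread, which was larger for *LCN2* and *CEACAM5* than for *CEACAM6*. In the other direction, *CEACAM6* was at rank 81 for *LCN2* and at rank 1533 for *CEACAM5*. The genes most like *TSPAN1* were *SRPX2* (0.0760), *CYP2B6* (0.133) and *TGFBI* (0.150), and those most like *TSPAN8* were *ANKRD22* (0.155), *DPP4* (0.187) and the claudin gene *CLDN2* (0.196).

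For *AGR2* the nearest were *TOX3* (0.103), an entry without a symbol (0.129) and *TC2N* (0.186). For *LCN2* they were *NEURL3* (0.367), the retinol carrier receptor gene *STRA6* (0.413) and *SERPINA1* (0.509), the gene of the secreted inhibitor alpha-1 antitrypsin, all at larger distances than for the other well-detected markers. *STRA6* had 7.32, 15.6, 21.5 and 2.11 CPM in shScr replicates 1 to 4, 17.1 and 3.68 CPM in shEN1 #1, and 0.889 and 16.6 CPM in shEN1 #2, with the same 4 high libraries as *LCN2*. *CEACAM1* was nearest to *CDC42EP5* (0.244) and *SELP* (0.252). *MSLN* was nearest to *PCSK5* (0.0826), *UNC5A* (0.0935) and *SGPP2* (0.0942), and *EPCAM* to *PAXIP1* (0.0911), *TMC7* (0.0993) and *RASSF3* (0.101). *CEACAM5*, with its few counts, had no close partner, the nearest being *LINC02870* (0.460), *CDHR2* (0.484) and *ALPG* (0.602).

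The wider marker lists were read in the same way, against the 19.2% of all tested genes with that lowest pair. In the classical PDA list, 13 of 24 genes were tested, 3 higher and 10 lower under the shEN1 label with 0 called, and the median log2 fold change was -0.18. For 10 of the 13, 3 of them among the markers described here, the 2 lowest libraries were shScr replicate 4 and shEN1 #2 replicate 1. *LGALS4*, a lectin gene of gut epithelium, had 9.29 and 4.14 CPM there against 24.4 to 44.3 CPM in the other 6 libraries, and *AGR3*, *TFF3*, *FAM3D* and *BTNL8* had 0 counts throughout. *TFF1* had 0 counts in both low libraries and at most 0.430 CPM elsewhere. In the basal-like list, 16 of 24 genes were tested, 7 higher and 9 lower with 0 called, and 13 of them had the same lowest pair. Its *DHRS9*, a retinol dehydrogenase gene, ranged 122-fold, from 0.160 CPM in shScr replicate 4 to 19.5 CPM in shEN1 #1 replicate 1.

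Of 26 other surface and secreted PDA markers, 18 were tested, 5 higher and 13 lower with 0 called, and 10 had that lowest pair. The protease inhibitor gene *SLPI* was far lower in that pair, with 1.66 and 0.711 CPM in shScr replicate 4 and shEN1 #2 replicate 1 against 10.3 to 32.5 CPM in the others. *TM4SF1*, a tetraspanin-like surface protein gene with the highest level of the list, did not share it, with 588 and 612 CPM there against 404 to 644 CPM. Of 18 epithelial and secretory transcription factor genes, 16 were tested, 7 higher and 9 lower with 0 called, and 10 had that pair lowest. *KLF5*, the highest of them per kilobase, ranged from 204 to 303 CPM and *EHF* from 68.3 to 300 CPM.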

How the data were processed

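Each library's deposited table gives raw counts of reads for each gene, which the authors did not normalize. Per the paper's methods, polyA RNA was sequenced in pairs, aligned to hg19 with HISAT2 and counted with featureCounts, whereas the submitters' processing notes name mm9. The annotation and strand setting are not given in the sources used here, so overlapping or antisense genes could share reads. Identifiers were matched to symbols through RefSeq (23696 of 25702 matched, the rest holding at most 0.257% of a library's counts), and positions and transcript lengths came from GENCODE v44 on GRCh37.

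Genes were filtered with filterByExpr (minimum count 10, 14333 kept), TMM-scaled and compared with edgeR 4.0.16 in R 4.3.3 (glmQLFit with robust estimation, glmQLFTest, Benjamini-Hochberg adjustment over all tested genes, threshold 0.05). Libraries were grouped by label, with 4 shEN1 against 4 shScr as the main comparison and 3 groups for the constructs. Log2 CPM used a prior count of 2. The script was run on simulated data with known changes, as a check of the code and not of power at the spread of these libraries. The markers, related lists, motifs and tests were chosen with earlier results of these data known. Named genes were the markers, *EN1*, in each list the tested non-member highest per kilobase and that with the largest ratio of highest to lowest, and for each marker the 3 nearest profiles, 1 of which is not reported here. Non-members named beyond this rule, to give a count or a value beside a result, were chosen after their values were seen. DESeq2 1.42.0, its size factors, no filter, 3 groups, a replicate block and leaving out libraries were tried as alternatives.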

Additional observations from a re-analysis of the deposited data

Results flagged for a closer look

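Among the 26 groups of 4 values examined, 2 held a library far from the other 3, where chance gives about 1.3. The first was *TSPAN1* among the libraries labelled shScr: shScr replicate 4 had 26.7 CPM and the other 3 between 94.2 and 106 CPM. The second was the TMM factor among the libraries labelled shEN1, which was 1.07 in shEN1 #2 replicate 1 and between 0.974 and 0.981 in the other 3. Both belong to the pair of libraries in which 7 of 9 tested markers had their lowest values.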

How the results depend on the processing

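No marker was called in any alternative. For shEN1 against shScr, the lowest unadjusted p of a marker was 0.0361 for *AGR2* (adjusted p = 0.447, edgeR) with 4 libraries left out. These were shScr replicates 3 and 4, shEN1 #1 replicate 1 and shEN1 #2 replicate 1. In that fit of shEN1 against shScr, 1512 of the 14273 tested genes had an unadjusted p below 0.05 in edgeR. Counts of called genes, none of them markers, changed from 0 as follows. For shEN1 against shScr there was 1 gene with the replicate block, 2 with DESeq2, 1 with 2 libraries left out (shScr replicate 4 and shEN1 #2 replicate 1), 1 with 4 libraries left out, and 0 to 1 in the fits that left out 1 library. For shEN1 #1 against shScr there was 1 gene without the filter, 3 with DESeq2, 2 and 7 with 2 and 4 libraries left out, and 0 to 1 with 1 library left out. With 4 libraries left out there were 8 genes for shEN1 #2 against shScr and 1 between the constructs, and where libraries were left out a construct's lone library was assumed to vary like the others. In the other fits the count was 0. The log2 fold change changed sign for *LCN2* with the replicate block (0.0035) and for *CEACAM5* (0.32) and *MSLN* (0.12) with 4 libraries left out, and the cause was not tested.

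With each library left out in turn, the ranges of log2 fold change were -0.73 to 0.055 for *AGR2*, -0.77 to 0.19 for *CEACAM1*, -0.79 to -0.041 for *CEACAM5*, -0.39 to 0.20 for *CEACAM6*, -0.23 to 0.17 for *EPCAM*, -0.74 to 0.28 for *LCN2*, -0.27 to 0.086 for *MSLN*, -0.44 to 0.15 for *TSPAN1*, -0.61 to 0.12 for *TSPAN8* and 0.057 to 0.57 for *EN1*. Nothing in the labels says whether same-numbered libraries are pairs. The correlations of their deviations (between -0.33 and 0.44) cannot decide it, because a construct's libraries deviate from their own mean as mirror images. The replicate block changed no call of a marker, and the labels give it no footing. Depth limits only *CEACAM5* and *PSCA*, with 111 and 100 counts in all.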
